A study of Mus musculus with 6 samples.

Results

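The pyruvate dehydrogenase kinases (Pdk1, Pdk2, Pdk3 and Pdk4), the pyruvate dehydrogenase phosphatases (Pdp1 and Pdp2) and the bifunctional enzymes of the PFKFB family (Pfkfb1, Pfkfb2, Pfkfb3 and Pfkfb4) are switches that set how much glucose carbon a cell burns or turns into lactate. All 10 genes were found by symbol among the 27179 genes of the table. The families were chosen from the fold changes of Pdk1 and Pfkfb3 in the authors' own comparison of the treatments, where the former rose and the latter fell. The authors' fold changes and p-values were not used here. What follows gives the level of each gene over all libraries together, and says nothing of a difference between the treatments.

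The RNA came from B16F10 cells, an established line of mouse melanoma labelled as wild type and grown in DMEM with 10% fetal bovine serum. There were 3 libraries from cells given 0.01% ozonated olive oil (OZO) and 3 from cells given 0.01% olive oil (OLO), the oil before ozone treatment, for 6 h in each case. Apart from the authors' comparison, the table holds 1 average per gene over the 6 libraries, so the levels below have no replicate error and were not tested. An order or share of genes below is that of this average, and need not hold within OZO or OLO alone. In bulk RNA, fewer cells that express a gene and less RNA in each cell cannot be told apart.

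A kinase of the PDK family phosphorylates the E1 subunit of the pyruvate dehydrogenase complex in mitochondria and switches it off, so that less pyruvate enters the citric acid cycle. A PDP phosphatase removes the phosphate and switches the complex on again. In the cytosol, a PFKFB enzyme makes and breaks down fructose 2,6-bisphosphate, a strong activator of phosphofructokinase, which controls the pace of glycolysis. Many tumour cells, melanoma included, are known for fast glycolysis with lactate release.

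The kinase family had its highest and its lowest member at very different levels, and the stretch before the start site is shown for the kinase genes Pdk3, Pdk1 and Pdk4 and for Pfkfb2, the highest PFKFB gene. Each sequence is from RefSeq on GRCm38.p6, the build also known as mm10, and is limited to bases before the RefSeq start that lie in no annotated exon of the gene. CG dinucleotides are in capitals, since promoters rich in them are common at widely expressed genes. Pdk3 is shown at chrX:93832202-93832400, minus strand, with 22 CG in 199 bases. Pdk1 is shown at chr2:71872974-71873223, plus strand, with 19 CG in 250 bases. Pdk4 is shown at chr6:5496310-5496528, minus strand, with 6 CG in 219 bases. Pfkfb2 is shown at chr1:130715822-130716071, minus strand, with 11 CG in 250 bases.
Pdk3: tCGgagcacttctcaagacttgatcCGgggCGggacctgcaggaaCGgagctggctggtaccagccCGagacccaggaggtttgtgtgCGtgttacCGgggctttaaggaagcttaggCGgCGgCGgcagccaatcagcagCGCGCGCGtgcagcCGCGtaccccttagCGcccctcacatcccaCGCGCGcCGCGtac
Pdk1: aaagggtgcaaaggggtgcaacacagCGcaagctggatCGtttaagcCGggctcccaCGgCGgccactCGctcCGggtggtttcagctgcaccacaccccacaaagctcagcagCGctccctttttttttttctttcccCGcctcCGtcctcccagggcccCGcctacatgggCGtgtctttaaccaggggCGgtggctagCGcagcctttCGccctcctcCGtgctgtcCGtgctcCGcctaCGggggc
Pdk4: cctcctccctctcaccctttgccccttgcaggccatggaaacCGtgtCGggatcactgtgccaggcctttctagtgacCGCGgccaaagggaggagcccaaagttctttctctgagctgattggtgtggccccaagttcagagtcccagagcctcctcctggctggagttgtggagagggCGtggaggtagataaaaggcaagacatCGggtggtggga
Pfkfb2: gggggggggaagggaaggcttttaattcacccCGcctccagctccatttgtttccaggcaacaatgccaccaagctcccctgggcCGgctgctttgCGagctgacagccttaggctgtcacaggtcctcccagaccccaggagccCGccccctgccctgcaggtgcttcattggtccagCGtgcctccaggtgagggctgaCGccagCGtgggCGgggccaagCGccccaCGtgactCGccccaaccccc

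Among the kinases, nearly all of the RNA came from Pdk1 and Pdk3. Pdk1, a kinase known as a target of the hypoxia response, averaged 91.7 CPM (counts scaled to a common library size), a geometric mean of 1801 reads per library. Divided by the length of its annotated exons, its level was 11.8 CPM per kb. Pdk3, a kinase known for its high activity and weak feedback, averaged 66.4 CPM or 1305 reads. Per length, Pdk3 was at 25.9 CPM per kb, 2.20 times the level of Pdk1. This order depended on the length used, because the annotated exons of Pdk1 cover 7779 bases and those of Pdk3 cover 2561. With the longest transcript of each gene, Pdk3 was still higher (31.4 against 17.7 CPM per kb), and with the coding length Pdk1 was higher (70.4 against 53.4 CPM per kb).

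Pdk2, a kinase found in most tissues, lay far below both of them. It averaged 1.33 CPM or 26.2 reads per library, and its level per length was 0.421 CPM per kb. Pdk1 was thus 28.0 times as high as Pdk2 per exon length, and 64.5 times per coding length. Pdk2 held 1.10% of the summed level of the kinases per exon length, where Pdk3 held 68.0% and Pdk1 30.9%. Per coding length the larger share was that of Pdk1, at 56.4% against 42.7% for Pdk3.

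Pdk4, the kinase known for its rise in fasting muscle and heart, was close to absent. It averaged 0.0736 CPM, a geometric mean of 1.45 reads per library, and made up 0.0549% of the kinase sum per exon length. Because 0.5 reads were added to each count before averaging, the product over the 6 libraries of (2 x reads + 1) can be read back, and it was 3465 for Pdk4. A total of 36 sets of 6 read counts give this product. In each of these sets at least 1 library had no Pdk4 read, and the lowest possible total was 12 reads over the 6 libraries. The set with this lowest total was 0, 1, 1, 2, 3 and 5 reads, and which library had which count is not known. For Pdk2 the same calculation gave a lowest possible total of 159 reads, as 20, 23, 26, 28, 30 and 32, among 4111 possible sets.

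The phosphatases stood near each other and below the main kinases. Pdp1, the catalytic subunit known for activation by calcium, averaged 12.8 CPM or 251 reads per library, and Pdp2, its relative that does not need calcium, averaged 12.2 CPM or 240 reads. Per exon length the levels were 2.84 CPM per kb for Pdp1 and 2.14 CPM per kb for Pdp2, a ratio of 1.32. Per coding length the ratio was 0.935, so no order of the phosphatases can be given. The kinases summed to 38.2 CPM per kb and the phosphatases to 4.98 CPM per kb, so kinase RNA was 7.67 times phosphatase RNA per exon length. The ratio was 9.59 with the longest transcripts and 8.45 with coding lengths, so it kept its direction under each length tried. Pdpr, the regulatory subunit of the phosphatase, was at 6.22 CPM per kb, above either catalytic subunit under the exon, transcript and coding lengths.

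**Figure D1:**
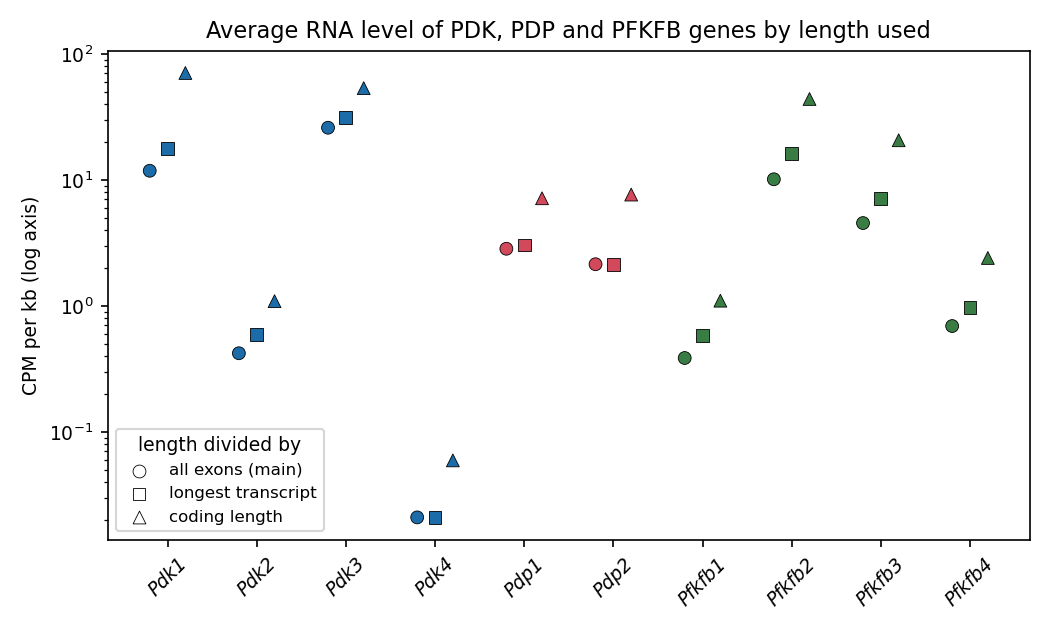
Average level of each PDK, PDP and PFKFB gene in CPM per kb (log axis) over the 6 libraries together, with circles for all annotated exons, squares for the longest transcript and triangles for the coding length; there are no error bars because only the average is given. Pdk3 lies above Pdk1 by circles and squares and below it by triangles (53.4 against 70.4), and Pdk4 lies lowest throughout.

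In the PFKFB family, Pfkfb2 led and Pfkfb3 followed. Pfkfb2, best known from heart and controlled by phosphorylation, averaged 73.1 CPM or 1436 reads per library, which was 10.1 CPM per kb. Pfkfb3, the member with the strongest kinase over phosphatase activity and known from dividing cells, averaged 34.3 CPM or 674 reads, which was 4.54 CPM per kb. Pfkfb2 was 2.22 times as high as Pfkfb3 per exon length, 2.27 times per longest transcript and 2.13 times per coding length. Pfkfb2 held 64.2% and Pfkfb3 28.9% of the family's summed level per exon length.

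Pfkfb4, known from testis and as a hypoxia-responsive gene, averaged 3.37 CPM or 66.2 reads per library. Its level per exon length, 0.692 CPM per kb, was exceeded 6.56 times by that of Pfkfb3. Pfkfb1, the liver and muscle form, was the lowest of the family with 1.55 CPM, 30.4 reads and 0.386 CPM per kb. The lowest total of Pfkfb1 reads that fits its average was 195 over the 6 libraries. The order Pfkfb2, Pfkfb3, Pfkfb4 and Pfkfb1 was the same with each of the 3 lengths and without division by length.

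Set among all genes, the 10 switches ran from the percentile 40.9 (Pdk4) to 90.1 (Pdk1) by average expression. At least 1 CPM was reached by 9 of the 10 genes, all but Pdk4, and by 43.6% of the 27179 genes. By average expression 4 of the 10 (Pdk1, Pdk3, Pfkfb2 and Pfkfb3) lay at or above the percentile 75 of the table. By level per exon length 3 did, since Pfkfb3 moved from the percentile 79.0 to 70.0. Pdk3 had the highest percentile per length, 92.0, and Pdk4 the lowest, 35.0. The median level of the 10 genes was 2.49 CPM per kb, against 0.238 over all genes with a length and 7.28 over those with at least 1 CPM.

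**Figure D2:**
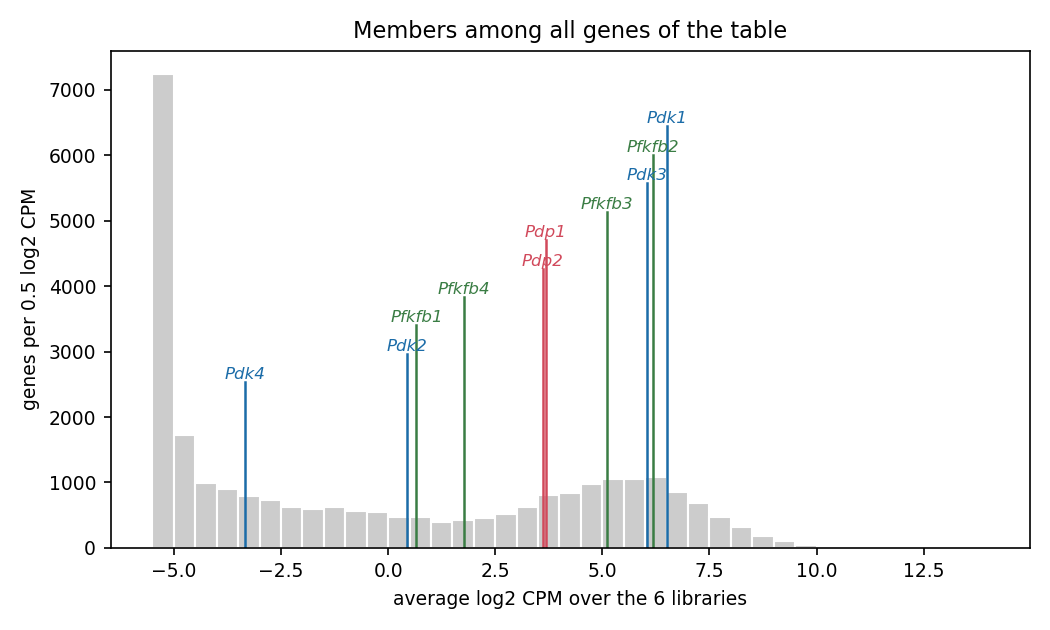
Number of genes (vertical axis) by average log2 CPM over the 6 libraries (horizontal axis, bins of 0.5), with a coloured line for each PDK (blue), PDP (red) and PFKFB (green) gene at its own average; line heights only separate the names. Pdk1, Pfkfb2 and Pdk3 stand between 6.05 and 6.52, and Pdk4 stands alone at -3.34.

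The genes that these switches act on, or that act beside them, were mostly well expressed. Of 18 partner genes listed, 16 reached 1 CPM. The pyruvate dehydrogenase complex and the carriers that bring pyruvate into mitochondria had a median of 30.6 CPM per kb over 7 genes, from 2.39 for the carrier subunit Mpc2 to 91.2 for Dld, the E3 subunit. Pdha1, whose protein is the E1 subunit that the kinases phosphorylate, was at 30.6 CPM per kb. Its level was 0.802 times the kinase sum per exon length and 0.782 times per coding length, so the kinase RNA together exceeded that of their substrate under each length.

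At the phosphofructokinase step, the 3 genes of phosphofructokinase 1 lay near Pfkfb2. Pfkm was at 17.8, Pfkl at 14.6 and Pfkp at 7.87 CPM per kb, and together they were 2.57 times the PFKFB sum per exon length and 1.65 times per coding length. Tigar, which also breaks down fructose 2,6-bisphosphate, was at 16.9 CPM per kb of exons against 10.1 for Pfkfb2. Tigar was also higher per longest transcript (16.9 against 16.2 CPM per kb) and per coding length (76.6 against 43.8 CPM per kb). Without division by length Pfkfb2 was higher, at 73.1 CPM against 61.8 CPM for Tigar. The fructose bisphosphatases that run the step backwards were low, with Fbp1 at 0.556 and Fbp2 at 0.0237 CPM per kb.

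On the lactate side, Ldha, the lactate dehydrogenase subunit that dominates in glycolytic cells, was at 395 CPM per kb. It was 13.5 times the level of Ldhb per exon length, 20.4 times per longest transcript and 26.3 times per coding length. Ldha exceeded Pdha1 12.9 times per exon length. Of the lactate carriers, Slc16a1 was at 47.1 and Slc16a3, a carrier known from strongly glycolytic cells, at 0.347 CPM per kb.

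**Figure D3:**
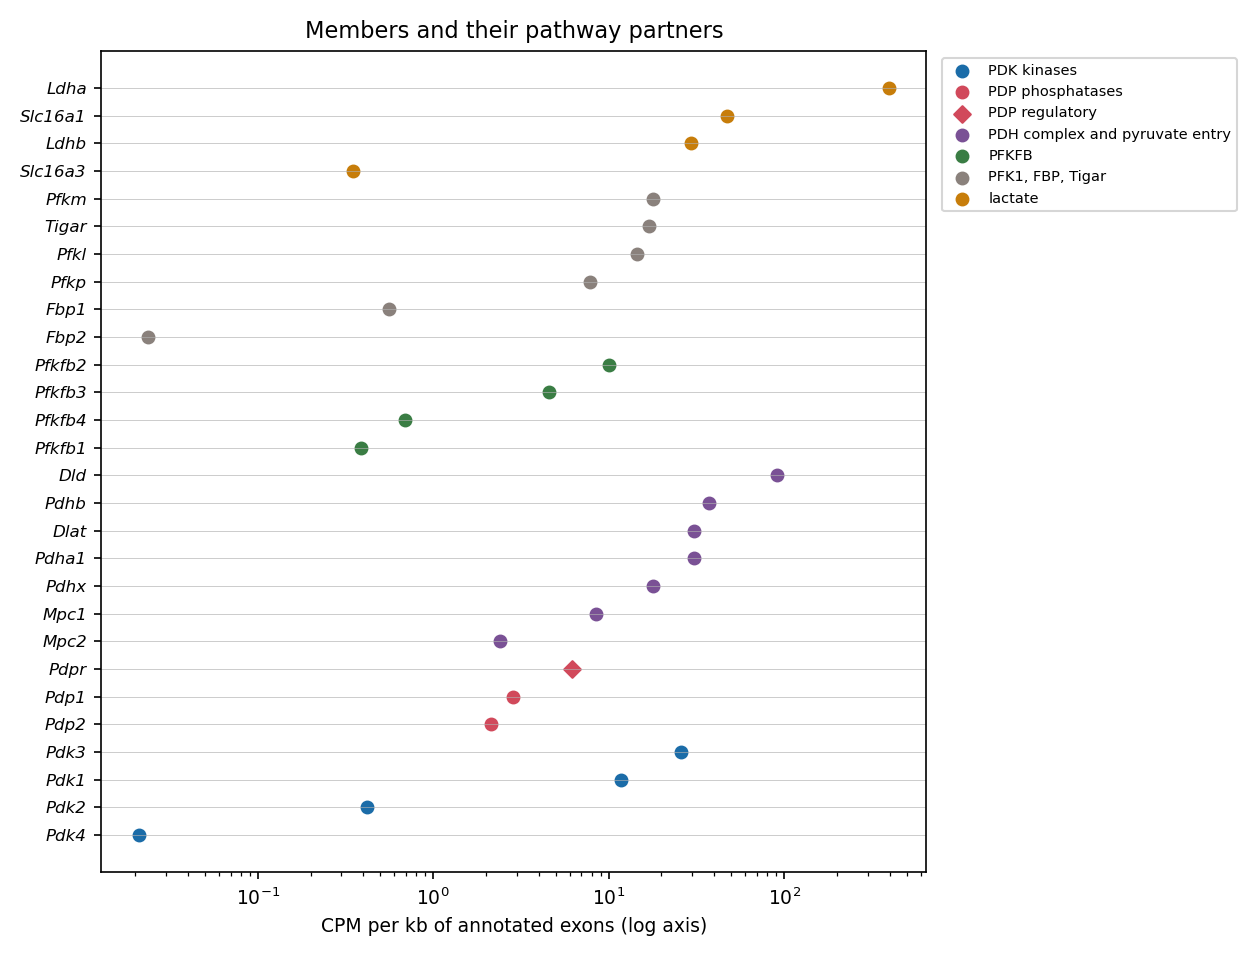
Level per kb of annotated exons (horizontal log axis) of each PDK, PDP and PFKFB gene and of the 18 partner genes, coloured by role, as averages over the 6 libraries without error bars. Pdk3 at 25.9 sits just below Ldhb at 29.3 and Pdha1 at 30.6, the phosphatases sit between 2.14 and 2.84, and Ldha at 395 lies to the right of all others shown.

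Members of a family share much of their coding sequence, but few long identical stretches. Identity of coding sequences ran from 64.8% (Pdk1 with Pdk4) to 67.0% (Pdk1 with Pdk2) among the kinases, was 58.1% between the phosphatases, and ran from 64.6% (Pfkfb2 with Pfkfb3) to 71.4% (Pfkfb1 with Pfkfb4) in the PFKFB family. No stretch of 100 bases from the longest transcript of 9 of the genes occurred in an annotated transcript of another gene. The exception was Pfkfb2, 24.9% of whose stretches also occur in Gm29427, an annotated gene on the same strand that overlaps it by 1262 exon bases. Exons of Pfkfb2 also overlap 154 bases of Yod1 on the opposite strand, and those of Pfkfb1 overlap 123 bases of Apex2 on the opposite strand. How reads shared with Gm29427 were counted is not given in the sources used here, so the value of Pfkfb2 is uncertain, whatever the strand setting. Whether counting used the strand is not given either, which adds to this for Pfkfb2 and leaves the value of Pfkfb1 uncertain over its 123 shared bases.

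The genes lie on 8 chromosomes of GRCm38. Pdk1 (chromosome 2, 71873224 to 71903858) and Pfkfb3 (chromosome 2, 11471433 to 11554077) share a chromosome, as do Pdk3 (chromosome X, 93764607 to 93832201) and Pfkfb1 (chromosome X, 150588229 to 150643878). Pfkfb2 is on chromosome 1 from 130689182 to 130729253, Pdp1 on chromosome 4 from 11958184 to 11966452 and Pdk4 on chromosome 6 from 5483351 to 5496309. Pdp2 is on chromosome 8 from 104591451 to 104599026, Pfkfb4 on chromosome 9 from 108991778 to 109032228 and Pdk2 on chromosome 11 from 95026258 to 95041354. The number of annotated transcripts ran from 1 for Pdp2 to 21 for Pfkfb3.

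RefSeq promoter windows were given for 9 of the 10 genes, all but Pdp1, and the 250 bases before each start were read. The ratio of observed to expected CG in the window nearest the start of the principal transcript was 1.02 for Pdk3, 0.807 for Pdk2 and 0.756 for Pdk1, and 0.278 for Pdk4. It was 0.476 for Pdp2. In the PFKFB family it was 0.757 for Pfkfb4, 0.617 for Pfkfb3, 0.40 for Pfkfb2 and 0.0874 for Pfkfb1, whose other windows reached 0.72. Level and CG content did not follow the same order in either family, since Pdk2 lay above Pdk1 in CG content and Pfkfb2 below Pfkfb3 and Pfkfb4. Taking the highest window of each gene, 6 of the 9 genes had a ratio of at least 0.6, and Pdk4, Pdp2 and Pfkfb2 were below it. Over the 18458 of the 27179 genes in the table that were matched to a window, which leave out Pdp1, 80.6% of 8731 genes with a ratio of at least 0.6 in any of their windows reached 1 CPM, against 23.8% of 9727 genes below it. Hypoxia-inducible factors bind a core of the letters ACGTG or GCGTG, and both forms were searched on both strands. The former also lies within the E-box CACGTG, and it occurred in a window of 5 of the 9 genes (Pdk2, Pdk3, Pdp2, Pfkfb2 and Pfkfb3), and in 18.5% of all 27025 genes with a window. In 4 of these genes (Pdk2, Pdp2, Pfkfb2 and Pfkfb3) the window nearest the principal start held the E-box, which was in 6.02% of all windows. The match of Pdk3 lay in an annotated exon of the gene, outside the stretch printed above. GCGTG occurred in 7 of the 9 genes, all but Pdk2 and Pdp2, and in 30.9% of all genes, and the printed stretches of Pdk3, Pdk1, Pdk4 and Pfkfb2 each hold it on one strand or the other. Either form was thus in a window of all 9 genes, against 41.5% of all genes. The 9 genes had more windows each than genes in general, and by window either form was in 12 of 17, against 38.6% of all 32851, and ACGTG in 7 of 17, against 16.6%. Both forms contain a CG, and the median ratio of observed to expected CG over all 32851 windows was 0.373. Shares among genes of like CG content were not computed, so a higher share in these genes was not tested. A match is a run of letters and was not tested as a site.

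Markers of the labelled cell type were present. All 7 melanocyte genes listed reached 1 CPM, from 35.6 CPM per kb for Sox10 to 2062 for Tyrp1. Of 8 markers of other cell types, 3 (Col1a1, Pdgfra and Pecam1) reached 1 CPM, the highest of the 8 was Pdgfra at 0.325 CPM per kb, and Krt5 had no reads. Depth per library is unknown, but the table gives its scaled geometric mean over the 6 libraries, 19641946 reads. A gene at 1 CPM therefore rested on about 19.6 reads in a library. No read was counted for 6025 of the 27179 genes.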

How the data were processed

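RNA of 3 OZO-treated and 3 OLO-treated B16F10 cultures was sequenced. According to the methods, the authors aligned reads to mm10 with HISAT2 (2.1.0), counted them with featureCounts (2.1.1) and ran limma-voom (limma 3.58.1). From the deposited table only the authors' average log2 CPM per gene was used, a mean over the 6 libraries after 0.5 reads are added to each count. The other columns hold the authors' own comparison of OZO with OLO (log2 fold change, moderated statistic, p-values and log odds) and were not used. No value of a single library entered, so the planned edgeR test and its alternatives were not run.

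Genes without reads share the lowest average, from which the scaled library size (geometric mean) follows. Levels were converted to geometric mean reads (0.5 taken off) and CPM. A geometric mean lies below the arithmetic mean where libraries differ. The product of (2 x reads + 1) over the libraries was a whole odd number within 0.01 for 100% of 6973 genes with few reads. These steps were tested on simulated data. Of the 27179 genes, 24126 had an Ensembl identifier. Lengths and positions came from GENCODE M21 (GRCm38), in which 23906 of these identifiers were found. The paper names a UCSC annotation for StringTie and does not say which one featureCounts used. The exons in which reads were counted may therefore differ from those used for the lengths. The main length was the union of annotated exons; the longest transcript, the longest coding length and no division were alternatives. Coding sequences were aligned with mafft 7.526. Python 3.11.15, numpy 2.4.6, pandas 2.3.3 and matplotlib 3.10.9 were used.

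The members and lists were chosen with earlier results of these data known. Named genes were the 10 members and, of 18 pathway partners and 15 cell type markers, mainly the highest and lowest of each list. The CG content, the letters searched for, the sets of reads and the ranking per length were added after the data were seen.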

Additional observations from a re-analysis of the deposited data

How the results depend on the processing

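No paired analysis was possible because each gene has 1 average over all 6 libraries. Leaving out a library was not possible either, and the planned test of OZO against OLO with DESeq2 size factors, with no filter on low counts or with a replicate block was not run.

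The choice of length moved several values. With coding lengths, the median level of the 10 genes was 7.39 CPM per kb in place of 2.49. The share of Pdk3 in the kinase sum was 68.0% with exon lengths, 63.2% with the longest transcripts, 42.7% with coding lengths and 41.6% without division by length. The share of Pdp1 in the phosphatase sum was 57.0% with exon lengths, 48.3% with coding lengths and 51.2% without division. The share of Pfkfb2 in its family was 64.2% with exon lengths and 65.1% both with the longest transcripts and without division. Of 13 pairs of members within the families, 12 kept their order without division, 11 with coding lengths and 13 with the longest transcripts. Among genes of at least 1 CPM, 1 of the 10 genes lay at or above the percentile 75 of average expression, in place of 4 among all genes. Limits of 0.5 and 2 CPM were passed by 9 and 7 of the 10 genes. Depth limits Pdk4 most, at 1.45 reads per library.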
